A study of Homo sapiens with 23 samples.

Results

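Clone 10 was compared with clone 11, a pair of drug-resistant melanoma clones, across all genes by bulk poly(A) RNA sequencing. The contrast used 5 of the 23 libraries of the series, taken by their labels: replicates 1, 2 and 3 of clone 10 and replicates 2 and 3 of clone 11. Both clones descend from WM989 A6-G3, a human melanoma line bottlenecked to a single cell, and the labels give the genotype of both as WT. Each was expanded from 1 colony that grew out under the BRAF inhibitor dabrafenib at 250 nM with the MEK inhibitor trametinib at 2.5 nM, and both were sequenced with these doses still in the medium. Drug, dose and parental line were therefore shared, and what differed was the colony (named A2 for clone 10 and A11 for clone 11). Untreated WM989 A6-G3 cells, with 3 libraries and no drug, serve as a reference level, as do the mean levels of clones 12 and 13, which had the same drugs. A clone is 1 colony here, so the tests below describe these colonies, and the labels call the replicates biological without saying what separates them, so p-values may measure technical spread.

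Melanoma cells that survive inhibition of the BRAF and MEK kinases often lose melanocytic genes and take on mesenchymal ones, such as collagens, integrins and secreted factors. Mesenchymal cells differ among themselves: myofibroblasts and smooth muscle cells make a contractile apparatus of actin, transgelin, calponin and myosin light chain kinase, whose genes are activated by serum response factor (SRF) with its coactivators myocardin and the myocardin-related factors. Other fibroblast states are known for adhesion molecules, chemokines, complement components and growth factors that act on neighbouring cells.

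Levels are given as TPM (a transcript level set relative to length and to the library's total) scaled between libraries, in the order replicates 1, 2, 3 for clone 10 and replicates 2, 3 for clone 11. Sequencing depth is unknown, since TPM keeps none. The measure of error is the spread between libraries of a group, pooled for each gene over all 23 libraries of the series. Where the clone 10 or clone 11 libraries spread more than that, errors and adjusted p-values may be too small. Clone 10 replicate 1 stood apart: it had 14415 genes above 0 TPM against 18671 to 24039 in the other 22 libraries, although its 13168 genes at 1 TPM or more lay within their range of 12857 to 13904. Across genes (not independent replicates), its log2 values correlated with those of the other clone 10 libraries at Pearson's r of 0.944 and 0.936, where clone 10 replicates 2 and 3 gave 0.979, the clone 11 pair gave 0.987, and pairs from different clones gave 0.900 to 0.945. It also held more melanocytic RNA. SOX10, the transcription factor of the melanocyte lineage, stood at 3.03% of the untreated mean in that library, at 0.196% and 0.0760% in the other clone 10 libraries, and at 0.0409% and 0.140% in clone 11. The melanosome antigen MLANA was at 2.21% against 0.102% and 0.118% in the other clone 10 libraries, and the pigment enzyme tyrosinase (TYR) was at 2.80% against 0.131% and 0.147%. Some transcripts that were abundant in clone 11 were also higher there: COL4A1 reached 7.42% of the clone 11 mean in clone 10 replicate 1 against 0.106% and 0.135% in replicates 2 and 3, and ACTA2 reached 2.05% against 0.262% and 0.212%. In bulk RNA, fewer cells of a type and less RNA per cell cannot be told apart, and the part of this library's make-up in the results was not tested. Gene counts per list and the log2 fold changes of called genes are therefore given with that library and without it ("without replicate 1"), while errors and adjusted p-values stand for all 5 libraries unless stated.

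**Figure D1:**
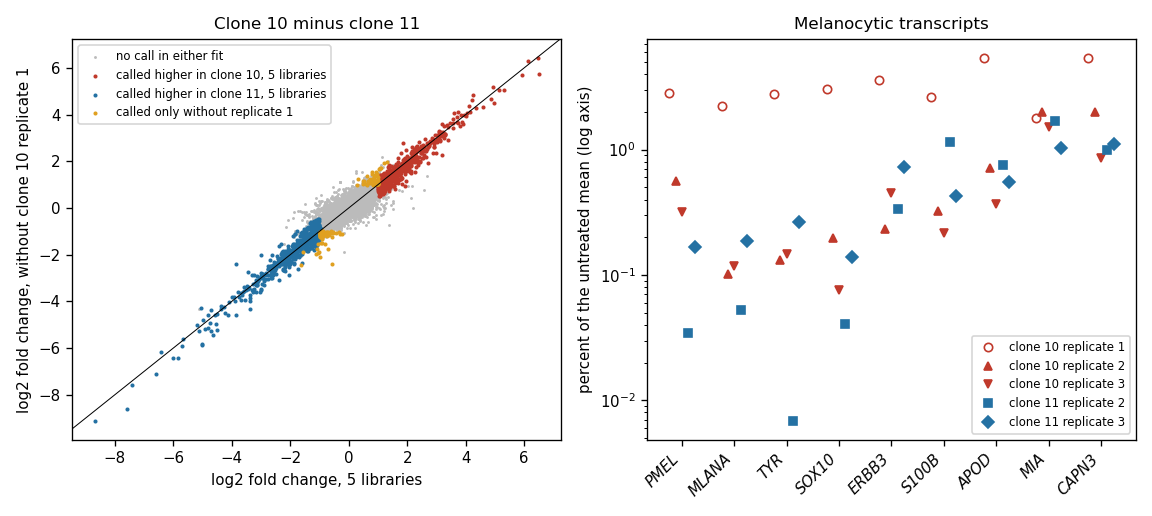
Left, the log2 fold change of each gene (clone 10 minus clone 11) with all 5 libraries on the horizontal axis and without clone 10 replicate 1 on the vertical axis, with the line of equality. Right, 9 melanocytic transcripts in each library as a percent of the untreated mean on a log axis, where the open circles of clone 10 replicate 1 lie above the other 4 libraries for every gene except MIA.

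Of 15657 genes tested, 679 (4.34%) were higher in clone 10 and 741 (4.73%) were higher in clone 11, or 9.07% in either direction. A call required an adjusted p under 0.05 in limma and a log2 fold change of at least 1 in size. Every log2 fold change below is clone 10 minus clone 11 on the scale of log2(scaled TPM + 1), so that negative values mark genes higher in clone 11. Without clone 10 replicate 1 the counts were 624 (4.01%) and 700 (4.49%) of 15575 genes, or 8.5% in either direction, and 557 (3.56%) and 624 (3.99%) genes were called in both fits. No call changed direction. A fit of the 5 libraries alone called fewer, 401 and 455. Libraries of the 2 clones did not overlap for 2935 genes tested (18.7%) that were higher in clone 10 and 3328 (21.3%) that were higher in clone 11, so separation of the libraries, which is stated for genes below, was common among all genes. For the 15 leading genes of each clone, separation was also a condition of being named, so it is no further result for them. The median over all genes tested was -0.01, and 56 genes higher in clone 10 and 76 higher in clone 11 reached a log2 fold change of 3 in size. Among genes higher in clone 10, the untreated mean was below both clones for 363 (53.5%), between them for 213 (31.4%) and above both for 103 (15.2%). For genes higher in clone 11 the shares were 53.4%, 33.5% and 13.1%, and for all genes tested they were 39.0%, 20.6% and 40.4%.

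**Figure D2:**
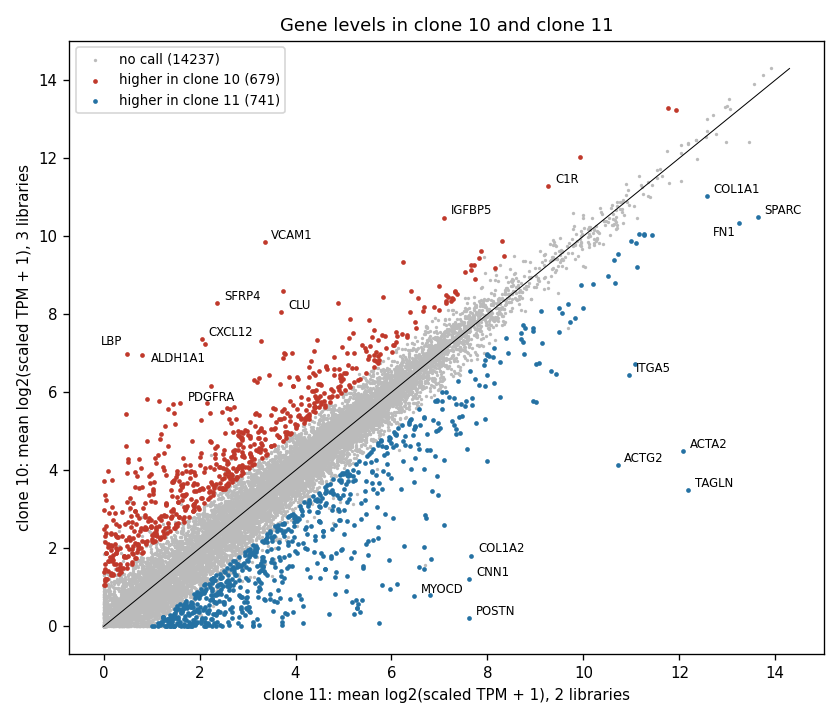
Mean log2(scaled TPM + 1) of every gene tested in clone 11 (horizontal, 2 libraries) and clone 10 (vertical, 3 libraries), with the line of equality. The 679 red points were called higher in clone 10 and the 741 blue points higher in clone 11; the contractile genes TAGLN, ACTA2 and ACTG2 lie far to the lower right and VCAM1, LBP and SFRP4 to the upper left.

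Most genes of the smooth muscle-type contractile apparatus were higher in clone 11, with levels in clone 10 that ranged from near 0 for some to over 100 TPM for others, such as MYLK. Of 27 tested members of the contractile and smooth muscle list, 21 were higher in clone 11 and 1 was higher in clone 10, with a median log2 fold change of -1.93 beside -0.01 over all genes. Without clone 10 replicate 1 the counts were 20 and 1 and the median was -1.88. TAGLN, which encodes the actin-binding protein transgelin, stood at 20.02, 5.31 and 9.67 TPM in clone 10 and 5709 and 3801 TPM in clone 11. Both clone 11 libraries lay far above every clone 10 library, with no overlap, and the untreated mean was 4.07 TPM. The log2 fold change was -8.70 ± 0.47 (SE; -9.15 without replicate 1), with an adjusted p of 1.45e-10. ACTA2, smooth muscle alpha-actin, was measured at 89.1, 11.4 and 9.22 TPM in clone 10 and 4464 and 4229 TPM in clone 11 (log2 fold change -7.59 ± 0.64, adjusted p = 4.30e-08). Within clone 10 the high library for ACTA2 was replicate 1, and the log2 fold change without it was -8.59. ACTG2, the enteric smooth muscle actin, was at 35.9, 9.34 and 12.9 TPM in clone 10 and 1706 and 1651 TPM in clone 11, a log2 fold change of -6.59 ± 0.41 with and -7.13 without replicate 1. Actins are close relatives in sequence, so the estimation can divide reads among them.

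The remaining members span the thin filament, its regulators and its transcriptional activators. Calponin 1 (CNN1), which binds actin in smooth muscle, stood at 0.708, 1.30 and 2.17 TPM in clone 10 and 223 and 173 TPM in clone 11, a log2 fold change of -6.41 ± 0.24 with and -6.19 without replicate 1. Leiomodin 1 (LMOD1), a nucleator of smooth muscle actin filaments, was at 2.15, 0.231 and 0.345 TPM in clone 10 and 129 and 95.2 TPM in clone 11 (log2 fold change -6.01 with and -6.43 without replicate 1). Myocardin (MYOCD), the coactivator of SRF that defines the smooth muscle lineage, was at 1.35, 0.0393 and 1.06 TPM in clone 10 and 78.6 and 98.8 TPM in clone 11 (log2 fold change -5.70 ± 0.35 with and -5.92 without replicate 1, adjusted p = 5.07e-10). All 3 were separated between the clones, and clones 12 and 13 had MYOCD means of 1.12 and 0.412 TPM. Desmin (DES), the muscle intermediate filament protein, was lower in level at 2.01, 0.172 and 0.217 TPM in clone 10 and 16.1 and 11.7 TPM in clone 11 (log2 fold change -3.18 with and -3.62 without replicate 1), again without overlap. Members outside the naming rule, chosen after their values were seen, included myosin light chain kinase (MYLK), the kinase that starts smooth muscle contraction. It stood at 103, 106 and 103 TPM in clone 10 and 2470.2 and 1882 TPM in clone 11, a log2 fold change of -4.36 ± 0.26 with and -4.35 without replicate 1. SRF itself was at 13.7, 14.9 and 14.9 TPM in clone 10 and 38.04 and 39.1 TPM in clone 11, a smaller but called log2 fold change of -1.35 ± 0.21 with and -1.31 without replicate 1 (adjusted p = 0.000102). FHL2, a LIM protein that interacts with SRF, was the member called higher in clone 10, at 375, 432 and 359 TPM in clone 10 and 149 and 171 TPM in clone 11 (log2 fold change 1.28 with and 1.30 without replicate 1). The clones did not overlap for any of these genes. Of 2 uncalled members that the rule named, calponin 2 (CNN2) was at 109, 122 and 137 TPM in clone 10 and 212 and 225 TPM in clone 11, a log2 fold change of -0.83 ± 0.15 with and -0.75 without replicate 1. The other, the troponin gene TNNT1, was at 158, 214 and 197 TPM in clone 10 and 193 and 192 TPM in clone 11. The called genes given with values here had adjusted p-values of 0.000102 or lower.

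**Figure D3:**
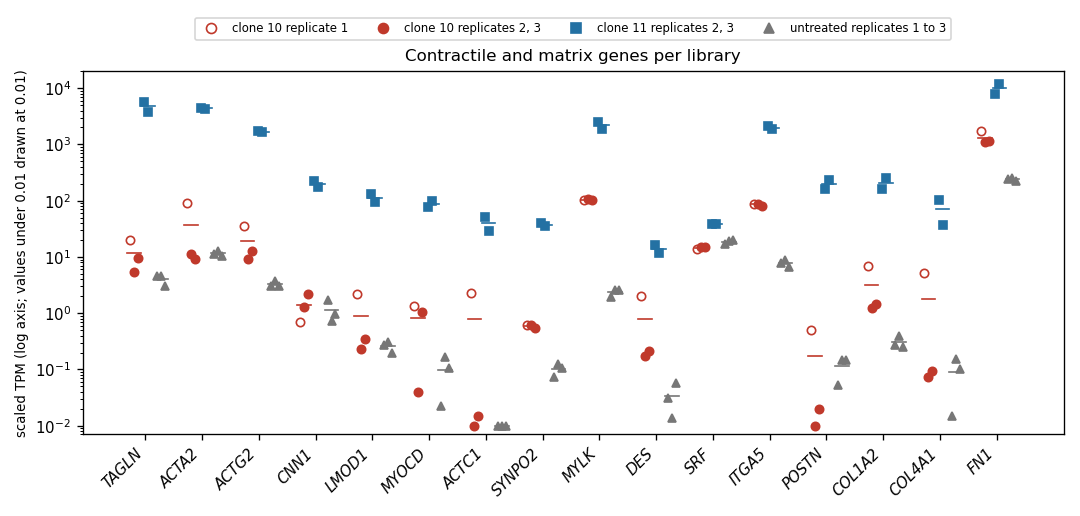
Scaled TPM on a log axis of 16 genes of the contractile apparatus, integrin ITGA5 and the matrix in each library of clone 10 (circles, open for replicate 1), clone 11 (squares) and untreated cells (triangles), with a line at each group mean. The clone 11 squares lie above all clone 10 circles for each of the 16 genes. Open circles lie above the filled ones for genes that include TAGLN, ACTA2, ACTG2, LMOD1, MYOCD, ACTC1, DES, POSTN, COL1A2, COL4A1 and FN1. They do not for CNN1, MYLK, SRF and ITGA5.

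SRF binds the CArG box (CC and GG on either side of a run of A or T), which was searched in the promoters of the genes that differed. RefSeq promoters (GRCh38.p14) matched 10208 of 15657 tested genes. The 250 bases before the annotated start were searched on both strands, which give the same matches because the motif is its own reverse complement. A CArG box was present in 20 of 480 promoters (4.17%) of genes higher in clone 11 and in 3 of 454 (0.661%) of genes higher in clone 10. The shares were 101 of 10208 (0.989%) over tested genes and 312 of 27305 (1.14%) over the whole table. Within the contractile list, 5 of 16 promoters (31.2%) of genes higher in clone 11 held one, as did 7 of 21 (33.3%) over all tested members. The 5 higher in clone 11 were those of ACTG2, ACTC1, MYLK, TPM4 and SRF. Outside that list the 20 included LDB3, a Z-disc protein, at 0.228, 0.309 and 0.205 TPM in clone 10 and 13.7 and 12.8 TPM in clone 11 (log2 fold change -3.51 with and -3.50 without replicate 1). They also included the actin cross-linker filamin A (FLNA), at 819.8, 828 and 1068 TPM in clone 10 and 2232 and 2142 TPM in clone 11 (log2 fold change -1.28 with and -1.21 without replicate 1). Both were chosen after their values were seen. A match is a description of the letters and not a measured binding site. Promoters of CNN1, LMOD1 and ACTA2, which had larger differences than most, held no exact match in these 250 bases. Inexact matches and bases outside that stretch were not searched, and TAGLN was not among the promoters matched. Those of 4 contractile genes called higher in clone 11 are shown because they hold the motif, with each CArG box in capitals and the strand of the gene read 5′ to 3′. The intervals are chr2:73892758-73893007 (plus strand) for ACTG2, chr15:34795550-34795799 (minus strand) for ACTC1, chr3:123620549-123620798 (minus strand) for MYLK and chr6:43171019-43171268 (plus strand) for SRF.
ACTG2: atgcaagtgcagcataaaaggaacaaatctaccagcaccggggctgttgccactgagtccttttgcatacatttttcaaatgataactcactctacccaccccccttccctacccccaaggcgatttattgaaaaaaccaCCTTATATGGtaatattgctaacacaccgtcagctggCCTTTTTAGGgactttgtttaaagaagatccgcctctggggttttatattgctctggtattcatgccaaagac
ACTC1: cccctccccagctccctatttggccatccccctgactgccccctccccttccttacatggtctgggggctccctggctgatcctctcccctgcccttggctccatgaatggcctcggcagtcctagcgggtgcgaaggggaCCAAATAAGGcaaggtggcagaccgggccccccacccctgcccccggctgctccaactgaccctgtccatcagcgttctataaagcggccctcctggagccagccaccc
MYLK: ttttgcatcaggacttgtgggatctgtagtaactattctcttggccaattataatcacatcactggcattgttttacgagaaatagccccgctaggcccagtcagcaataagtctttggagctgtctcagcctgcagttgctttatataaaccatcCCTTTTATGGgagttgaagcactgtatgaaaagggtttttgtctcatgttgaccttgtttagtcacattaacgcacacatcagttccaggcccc
SRF: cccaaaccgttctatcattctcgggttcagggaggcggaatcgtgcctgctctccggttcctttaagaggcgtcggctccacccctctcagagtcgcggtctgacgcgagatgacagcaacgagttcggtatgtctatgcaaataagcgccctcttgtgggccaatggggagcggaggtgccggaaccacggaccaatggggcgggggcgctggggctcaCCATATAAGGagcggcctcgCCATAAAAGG
ACTG2 and SRF held 2 CArG boxes each, and ACTC1 and MYLK held 1 each. ACTC1, cardiac alpha-actin, named after its values were seen, was at 2.33, 0 and 0.0147 TPM in clone 10 and 51.4 and 28.6 TPM in clone 11 (log2 fold change -4.71 with and -5.28 without replicate 1). TPM4, a tropomyosin whose promoter held 1 CArG box and likewise named afterwards, was at 405, 398 and 549 TPM in clone 10 and 1582 and 1658 TPM in clone 11 (log2 fold change -1.86 with and -1.79 without replicate 1).

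Pericyte and smooth muscle markers mostly went the same way, but not all were called. Of 11 tested members of that list, 8 were higher in clone 11 and 0 in clone 10, also without replicate 1. All 11 had negative log2 fold changes. At an unadjusted p under 0.05 in limma, 10 were higher in clone 11 and 0 in clone 10. The share of all genes at that cutoff was not counted, so such counts, here and below, have no background. TAGLN, ACTA2, ACTG2, CNN1 and DES stand in both this list and the contractile list. The summed level of RGS5, MYH11, DES and CNN1 was 8.17 to 9.52 TPM in clone 10, 193 to 246 TPM in clone 11 and 8.37 to 9.80 TPM in untreated cells. Most of the clone 11 sum was the shared gene CNN1, at 223 and 173 TPM. RGS5, a marker of pericytes, was at 6.25, 6.29 and 4.73 TPM in clone 10 and 5.24 and 6.74 TPM in clone 11, which overlapped. MYH11, smooth muscle myosin heavy chain, was at 0.553, 0.581 and 1.04 TPM in clone 10 and 1.59 and 1.31 TPM in clone 11, without overlap. It missed the call by size only (log2 fold change -0.51 ± 0.16 with and -0.44 without replicate 1, adjusted p = 0.0281 in limma). A fixed set of 5 keratinocyte or epithelial markers summed to at most 2.99 TPM in any of the 5 libraries, with KRT5 listed at 0 in all 5. KRT14 was called higher in clone 11, at 0, 0 and 0.0262 TPM in clone 10 and 1.25 and 2.44 TPM in clone 11. Its log2 fold change was -1.46 with and -1.45 without replicate 1, at levels near the filter of 1 TPM. Its list held no call for clone 11 without clone 11 replicate 2, without clone 11 replicate 3 or in the fit of the 5 libraries alone. Keratins of simple epithelia, which many other cells also make, were higher, with KRT18 at 47.7, 42.5 and 137 TPM in clone 10 and 62.7 and 73.9 TPM in clone 11. KRT8 was at 14.9, 23.4 and 29.1 TPM in clone 10 and 23.6 and 18.4 TPM in clone 11. Both overlapped between the clones. Endothelial markers summed to at most 2.05 TPM. A fixed set of 5 immune markers summed to 283 to 372 TPM in clone 10 and 140 to 167 TPM in clone 11, nearly all of it CD68. CD68, a lysosomal protein that is not limited to immune cells, was at 314, 371 and 282 TPM in clone 10 and 165 and 138 TPM in clone 11, and CD3D was listed at 0 in every one. Of 6 tested immune list members, 1 was higher in clone 10 (CD68, a call lost without clone 10 replicate 2 or clone 11 replicate 3) and 2 in clone 11. Those 2 were CSF1R, at 2.65, 0.437 and 0.566 TPM in clone 10 and 7.75 and 9.13 TPM in clone 11 (log2 fold change -2.22 with and -2.65 without replicate 1), and CD8A, at 0, 0.18 and 0.28 TPM in clone 10 and 1.43 and 1.62 TPM in clone 11 (log2 fold change -1.14 with and -1.03 without replicate 1). Fibroblast markers, many of which melanoma cells in a mesenchymal state also express, summed to 216 to 630 TPM in clone 10, 562 to 800 TPM in clone 11 and 53.2 to 63.8 TPM in untreated cells, with THY1 under 1 TPM in all of these. Most of the clone 11 sum was LUM, at 679 and 459 TPM, and the members were divided. FAP and LUM were called higher in clone 11, and PDPN, DCN and PDGFRA were called higher in clone 10. Melanocytic markers summed to 70.6 to 377 TPM in clone 10 and 20.5 to 34.7 TPM in clone 11, against 11826 to 12216 TPM in untreated cells. Schwann or neuronal markers summed to 8.60 to 21.1 TPM in clone 10, 26.3 to 37.3 TPM in clone 11 and 104 to 110 TPM in untreated cells. The part of other cell types in the results was not tested.

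Matrix genes differed in both directions, with the larger counts and differences on the side of clone 11. Among 21 tested fibrillar and basement membrane collagens, 12 were higher in clone 11 and 5 in clone 10 (median log2 fold change -1.10), and the same counts held without clone 10 replicate 1. COL1A2, a chain of type I collagen, was at 6.84, 1.23 and 1.46 TPM in clone 10 and 162 and 250.3 TPM in clone 11 (log2 fold change -5.85 ± 0.50 with and -6.43 without replicate 1, adjusted p = 6.17e-08). Its partner chain COL1A1 was abundant in both clones, at 2050.1, 2133 and 2059 TPM in clone 10 and 5368 and 6858 TPM in clone 11. Its log2 fold change was -1.54 ± 0.27 with and -1.53 without replicate 1. The ratio between the clones was therefore much wider for COL1A2 than for COL1A1, and the clones did not overlap for either. COL4A1, a basement membrane collagen, was at 5.17, 0.0737 and 0.0938 TPM in clone 10 and 102 and 37.3 TPM in clone 11. Its neighbour and partner COL4A2 was at 5.67, 0.289 and 0.138 TPM in clone 10 and 110.5 and 42.00 TPM in clone 11 (log2 fold change -5.02 with and -5.83 without replicate 1). Without clone 10 replicate 1 the log2 fold change of COL4A1 was -5.85, against -5.02 ± 0.54 with it. Clone 10 replicate 1 was the highest of its clone for both chains. COL3A1, type III collagen, was at 20.1, 5.99 and 8.03 TPM in clone 10 and 103 and 127 TPM in clone 11 (log2 fold change -3.39 with and -3.86 without replicate 1). COL5A3, a type V chain, was at 3.05, 1.16 and 3.07 TPM in clone 10 and 98.5 and 129 TPM in clone 11 (log2 fold change -5.11 with and -5.25 without replicate 1). The reverse held for COL6A3, a microfibril-forming collagen, at 114, 126 and 162 TPM in clone 10 and 11.6 and 34.04 TPM in clone 11 (log2 fold change 2.67 ± 0.39 with and 2.78 without replicate 1). COL15A1, COL12A1, COL8A2 and COL14A1 were also higher in clone 10, with log2 fold changes of 2.48, 1.70, 1.37 and 1.32, and 2.58, 1.74, 1.22 and 1.28 without replicate 1. These 4 were named after their values were seen, and COL14A1 missed the threshold of size without clone 11 replicate 3 (1.00). Adjusted p-values for the called genes above were at most 0.000345.

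Among 40 matrix glycoproteins and proteoglycans, 9 were higher in clone 11 and 8 in clone 10 (11 and 8 without replicate 1). Periostin (POSTN), a matricellular protein that binds integrins, was at 0.495, 0.00819 and 0.02 TPM in clone 10 and 163 and 234 TPM in clone 11 (log2 fold change -7.41 ± 0.20 with and -7.59 without replicate 1, adjusted p = 1.03e-14). Fibronectin (FN1), the main ligand of integrin alpha 5, was at 1719.6, 1093 and 1149 TPM in clone 10 and 8002 and 11774 TPM in clone 11 (log2 fold change -2.91 with and -3.11 without replicate 1). SPARC, a collagen-binding glycoprotein, was at 1609.7, 1154 and 1560.3 TPM in clone 10 and 13912 and 11540.1 TPM in clone 11 (log2 fold change -3.15 with and -3.24 without replicate 1). For both, the lowest clone 11 library was several times the highest clone 10 library. Tenascin C (TNC) was at 15.4, 1.69 and 3.97 TPM in clone 10 and 138 and 133 TPM in clone 11 (log2 fold change -4.50 with and -5.22 without replicate 1), where clone 10 replicate 1 was the highest of its clone. On the side of clone 10 stood decorin (DCN), a small collagen-binding proteoglycan, at 183, 114 and 49.5 TPM in clone 10 and 26.4 and 21.5 TPM in clone 11 (log2 fold change 2.04 with and 1.62 without replicate 1). The adhesion protein SVEP1 was there too, at 6.69, 11.7 and 10.4 TPM in clone 10 and 0.0162 and 0.0265 TPM in clone 11 (log2 fold change 3.35 with and 3.56 without replicate 1). Of 29 integrin and laminin genes, 9 were higher in clone 11 and 5 in clone 10 (8 and 5 without replicate 1). ITGA5, the alpha 5 chain of the fibronectin receptor, was at 87.6, 88.2 and 80.7 TPM in clone 10 and 2115 and 1844 TPM in clone 11, a log2 fold change of -4.51 ± 0.16 with and -4.53 without replicate 1. Clones 12 and 13 averaged 110.5 and 165 TPM. ITGA1 and ITGA11, collagen receptor chains, had log2 fold changes of -2.18 and -2.08 (-2.26 and -2.22 without replicate 1). LAMB3, a laminin beta chain of epithelial basement membranes, was at 4.89, 4.45 and 9.06 TPM in clone 10 and 105 and 104 TPM in clone 11 (log2 fold change -3.94 with and -3.83 without replicate 1). LAMA3, the alpha chain that pairs with it, was higher in clone 10, at 7.99, 4.84 and 1.19 TPM in clone 10 and 0.27 and 0.155 TPM in clone 11 (log2 fold change 2.00 with and 1.56 without replicate 1). The chains of this laminin therefore differed in opposite directions. ITGB2, the leukocyte integrin beta chain, was higher in clone 10, at 10.9, 19.3 and 13.99 TPM in clone 10 and 0.29 and 0.524 TPM in clone 11 (log2 fold change 3.45 with and 3.64 without replicate 1). ADAMTS2, the protease that trims procollagens, was at 1.20, 0.115 and 0.0816 TPM in clone 10 and 40.97 and 34.8 TPM in clone 11 (log2 fold change -4.81 with and -5.14 without replicate 1). Of 19 genes for collagen cross-linking and processing 5 were higher in clone 11 and 2 in clone 10 (5 and 2 without replicate 1). For these called genes limma gave adjusted p-values up to 0.0013.

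Secreted signals and receptors were divided between the clones. In the TGF-beta and BMP list, 9 of 38 tested members were higher in clone 11 and 8 in clone 10 (9 and 8 without replicate 1). Inhibin beta A (INHBA), the subunit of activin A, was at 13.6, 9.81 and 17.7 TPM in clone 10 and 90.9 and 167 TPM in clone 11 (log2 fold change -3.11 ± 0.31 with and -3.12 without replicate 1). The ligand BMP2 was at 2.38, 0.516 and 1.06 TPM in clone 10 and 15.3 and 9.62 TPM in clone 11 (log2 fold change -2.58 with and -2.89 without replicate 1). ID4, a helix-loop-helix inhibitor that BMP signals induce in many cells, was at 1.89, 0.149 and 0.125 TPM in clone 10 and 42.9 and 28.6 TPM in clone 11 (log2 fold change -4.54 with and -4.98 without replicate 1). The 3 genes were higher in both clone 11 libraries than in any clone 10 library. On the other side was the ligand BMP7, at 5.08, 6.62 and 8.36 TPM in clone 10 and 0.465 and 0.149 TPM in clone 11 (log2 fold change 2.54 with and 2.70 without replicate 1). The type I receptor ACVRL1 was also higher in clone 10, at 14.04, 10.6 and 8.43 TPM in clone 10 and 0.978 and 0.246 TPM in clone 11 (log2 fold change 2.91 with and 2.73 without replicate 1). TGFB1 was at 73.4, 82.99 and 66.3 TPM in clone 10 and 117 and 132 TPM in clone 11 and was not called, with a log2 fold change of -0.74 ± 0.11 with and -0.73 without replicate 1. In the Notch list 5 of 17 were higher in clone 11 and 1 in clone 10 (5 and 1 without replicate 1). The receptor NOTCH3 was at 0.901, 1.02 and 2.85 TPM in clone 10 and 26.8 and 39.7 TPM in clone 11 (log2 fold change -3.77 with and -3.59 without replicate 1). The ligand JAG1 was at 13.3, 13.6 and 19.98 TPM in clone 10 and 65.1 and 106 TPM in clone 11 (log2 fold change -2.37 with and -2.27 without replicate 1). HEY1, a target gene, was at 5.29, 0.123 and 0.648 TPM in clone 10 and 7.75 and 14.8 TPM in clone 11 (log2 fold change -2.38 with and -3.11 without replicate 1). Clone 11 was above clone 10 in every library for these 3. NOTCH1 was the member higher in clone 10, at 4.42, 5.94 and 4.44 TPM in clone 10 and 1.29 and 1.78 TPM in clone 11 (log2 fold change 1.22 with and 1.28 without replicate 1). No called gene in this group had an adjusted p above 0.000633.

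Ion channels, receptors of contractile agonists and keratins also differed. Of 39 tested ion channel genes, 10 were higher in clone 11 and 4 in clone 10 (9 and 4 without replicate 1). CACNA1H, a T-type calcium channel, was at 0, 0.443 and 0.461 TPM in clone 10 and 11.6 and 17.9 TPM in clone 11 (log2 fold change -3.59 with and -3.41 without replicate 1). TRPC4, a cation channel of smooth muscle, was at 0.413, 0.714 and 0.9 TPM in clone 10 and 11.2 and 12.3 TPM in clone 11 (log2 fold change -2.94 with and -2.81 without replicate 1). The junctophilin JPH2, which holds muscle membrane junctions together, was at 1.10, 2.00 and 2.44 TPM in clone 10 and 98.6 and 105 TPM in clone 11 (log2 fold change -5.20 ± 0.18 with and -4.99 without replicate 1). KCNJ2, an inward rectifier potassium channel, was higher in clone 10, at 18.9, 21.2 and 9.55 TPM in clone 10 and 1.06 and 0.409 TPM in clone 11 (log2 fold change 3.29 with and 3.16 without replicate 1). In the list of G protein-coupled receptors and regulators, 11 of 42 were higher in clone 10 and 8 in clone 11 (10 and 6 without replicate 1). The oxytocin receptor OXTR was at 3.90, 3.11 and 4.41 TPM in clone 10 and 66.9 and 39.5 TPM in clone 11 (log2 fold change -3.46 with and -3.47 without replicate 1). Endothelin 1 (EDN1), a peptide that contracts smooth muscle, was at 0, 0.0871 and 0.386 TPM in clone 10 and 10.7 and 6.31 TPM in clone 11 (log2 fold change -3.01 with and -2.91 without replicate 1). For these genes, too, no library of one clone reached the level of the other. The lysophosphatidic acid receptor LPAR1 was higher in clone 10, at 66.2, 59.4 and 36.1 TPM in clone 10 and 5.12 and 2.27 TPM in clone 11 (log2 fold change 3.57 with and 3.40 without replicate 1). Intermediate filament genes gave 7 of 17 higher in clone 11 and 1 in clone 10 (7 and 1 without replicate 1). The keratin KRT17 was at 0, 0 and 0.17 TPM in clone 10 and 26.1 and 104 TPM in clone 11 (log2 fold change -5.66 with and -5.62 without replicate 1). Its clone 11 pair was unequal, and clone 10 replicates 1 and 2 were listed at 0. KRT7 was higher in clone 10, at 17.5, 8.49 and 12.2 TPM in clone 10 and 1.20 and 2.40 TPM in clone 11 (log2 fold change 2.27 with and 2.03 without replicate 1). The called genes given with values here had adjusted p-values of 3.18e-06 or lower.

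In clone 10, an adhesion molecule, a set of secreted proteins and an aldehyde dehydrogenase led the difference. VCAM1, the adhesion molecule that binds leukocyte integrin alpha 4 beta 1, was at 976, 945 and 832 TPM in clone 10 and 13.97 and 6.01 TPM in clone 11. All 3 clone 10 libraries lay far above both of clone 11, with a log2 fold change of 6.48 ± 0.24 with and 6.44 without replicate 1 and an adjusted p of 4.32e-13. LBP, the lipopolysaccharide-binding protein of plasma, was at 366, 171 and 31.6 TPM in clone 10 and 0.499 and 0.321 TPM in clone 11 (log2 fold change 6.50 ± 0.69). Its clone 10 libraries spread widely, with replicate 1 the highest, and without it the log2 fold change was 5.73. CXCL12, the ligand of the chemokine receptor CXCR4, was at 232, 212 and 88.3 TPM in clone 10 and 3.46 and 2.84 TPM in clone 11 (log2 fold change 5.31 ± 0.29 with and 5.06 without replicate 1). SFRP4, a secreted WNT antagonist, was at 413, 284 and 255 TPM in clone 10 and 5.12 and 3.36 TPM in clone 11 (log2 fold change 5.91 with and 5.71 without replicate 1). Its relative SFRP1 was at 32.1, 34.5 and 41.7 TPM in clone 10 and 5.03 and 5.52 TPM in clone 11 (log2 fold change 2.56 with and 2.64 without replicate 1). In the WNT list 8 of 33 tested members were higher in clone 10 and 6 in clone 11 (8 and 7 without replicate 1). The receptor ROR2 was among the latter, at 1.81, 0.268 and 0.0933 TPM in clone 10 and 10.2 and 11.3 TPM in clone 11 (log2 fold change -2.90 with and -3.31 without replicate 1). Its relative ROR1 was higher in clone 10, at 29.6, 21.7 and 22.1 TPM in clone 10 and 6.29 and 5.65 TPM in clone 11 (log2 fold change 1.86 with and 1.72 without replicate 1). The paired relatives thus differed in direction for the ROR receptors and not for the SFRP antagonists. ALDH1A1, which makes retinoic acid from retinal, was at 103, 182 and 99.3 TPM in clone 10 and 1.14 and 0.43 TPM in clone 11 (log2 fold change 6.15 ± 0.61 with and 6.27 without replicate 1). FAM20C, the kinase of secreted proteins, was at 170.0, 175 and 115 TPM in clone 10 and 4.17 and 2.58 TPM in clone 11 (log2 fold change 5.14 with and 5.05 without replicate 1). CADM1, a cell adhesion molecule, was at 611, 809.9 and 536 TPM in clone 10 and 92.8 and 59.7 TPM in clone 11 (log2 fold change 3.09 with and 3.13 without replicate 1). No clone 11 library reached a clone 10 level for any of these 3. CARD16, an inhibitor of caspase 1, was at 497, 434 and 268 TPM in clone 10 and 19.2 and 7.88 TPM in clone 11 (log2 fold change 4.85 with and 4.67 without replicate 1). Adjusted p-values for the called genes above were at most 1.51e-06.

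**Figure D4:**
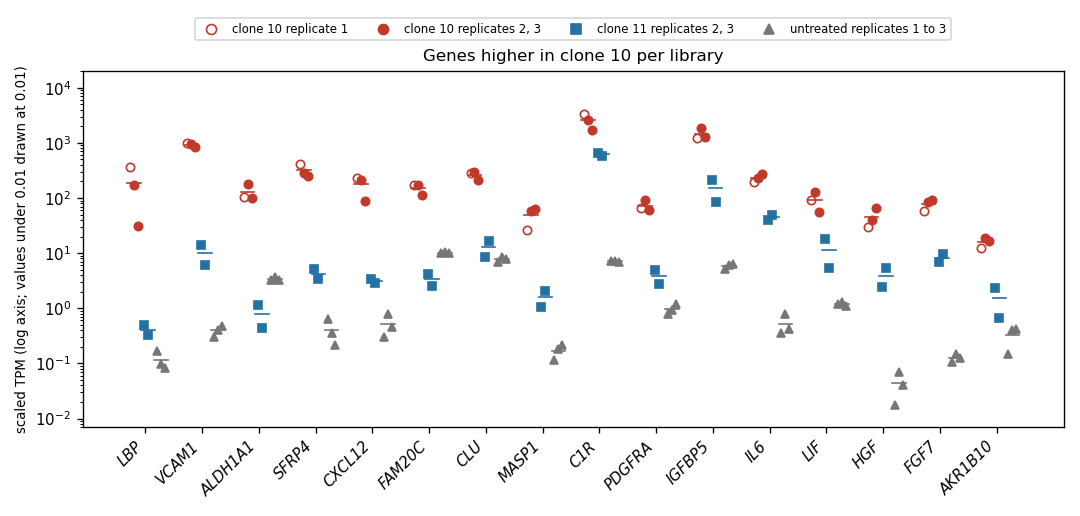
Scaled TPM on a log axis of 16 genes called higher in clone 10, in each library of clone 10 (circles, open for replicate 1), clone 11 (squares) and untreated cells (triangles), with a line at each group mean. All circles lie above all squares for each gene; the untreated triangles lie below the squares for all but ALDH1A1, FAM20C and CLU.

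Every called complement gene was higher in clone 10 when all 5 libraries were used. Of 23 tested, 10 were higher in clone 10 and 0 in clone 11, with a median log2 fold change of 0.71. By limma at an unadjusted p under 0.05, 1 gene was higher in clone 11, a count with no background share. Without clone 10 replicate 1 the counts were 8 and 1 and the median was 0.32. Without clone 11 replicate 2 the count for clone 11 was also 1. Clusterin (CLU), which blocks the terminal complex, was at 285, 297 and 216 TPM in clone 10 and 8.51 and 16.9 TPM in clone 11 (log2 fold change 4.34 ± 0.25 with and 4.29 without replicate 1). MASP1, a protease of the lectin pathway, was at 26.7, 58.2 and 63.6 TPM in clone 10 and 1.06 and 2.08 TPM in clone 11 (log2 fold change 4.23 with and 4.62 without replicate 1). C1R, a protease of the C1 complex, was at 3324, 2641 and 1726 TPM in clone 10 and 662 and 575 TPM in clone 11 (log2 fold change 2.00 with and 1.79 without replicate 1). Its partner C1S was at 694, 644 and 501 TPM in clone 10 and 220.0 and 186 TPM in clone 11 (log2 fold change 1.58 with and 1.49 without replicate 1). Both proteases were high in clone 11 too when set beside untreated means of 7.16 and 7.32 TPM. C2, which the C1 complex cleaves, was at 21.4, 14.5 and 6.70 TPM in clone 10 and 2.23 and 2.73 TPM in clone 11 (log2 fold change 2.00 with and 1.66 without replicate 1). The central component C3, named after its values were seen, was at 5.78, 4.78 and 5.34 TPM in clone 10 and 4.74 and 6.34 TPM in clone 11, which overlapped and was not called. The surface inhibitors CD46 and CD59, the most abundant uncalled members, had log2 fold changes of 0.08 ± 0.24 and 0.24 ± 0.19 (0.01 and 0.32 without replicate 1). For these called genes limma gave adjusted p-values up to 0.000897.

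Cytokines of the interleukin 6 and interleukin 1 families were higher in clone 10 for 9 of 30 tested genes and in clone 11 for 4 (8 and 3 without clone 10 replicate 1). IL6 was at 198, 229.7 and 272 TPM in clone 10 and 40.7 and 49.95 TPM in clone 11 (log2 fold change 2.33 ± 0.36 with and 2.45 without replicate 1). Its receptor IL6R was at 14.96, 20.4 and 8.91 TPM in clone 10 and 1.26 and 0.75 TPM in clone 11 (log2 fold change 2.92 with and 2.87 without replicate 1). LIF, another ligand that signals through the shared receptor gp130, was at 92.95, 126 and 55.1 TPM in clone 10 and 17.7 and 5.34 TPM in clone 11 (log2 fold change 3.01 with and 2.96 without replicate 1). The gene of gp130, IL6ST, was named after its values were seen and stood at 133, 149 and 84.6 TPM in clone 10 and 29.2 and 24.8 TPM in clone 11 (log2 fold change 2.10 with and 2.02 without replicate 1). The 2 clones were separated for each of them. TSLP, an epithelial-type cytokine, was at 25.7, 40.6 and 41.4 TPM in clone 10 and 1.79 and 1.83 TPM in clone 11 (log2 fold change 3.69 with and 3.90 without replicate 1). In contrast, IL11, a gp130 cytokine known from fibroblasts, was higher in clone 11, at 0.975, 2.26 and 7.14 TPM in clone 10 and 33.3 and 39.6 TPM in clone 11 (log2 fold change -3.32 with and -2.85 without replicate 1). IL1B, the inflammatory cytokine interleukin 1 beta, was also higher there, at 0, 0.154 and 0.442 TPM in clone 10 and 5.59 and 6.66 TPM in clone 11 (log2 fold change -2.58 with and -2.46 without replicate 1). The decoy receptor TNFRSF11B (osteoprotegerin) was higher in clone 10, at 21.4, 64.3 and 92.6 TPM in clone 10 and 2.05 and 1.43 TPM in clone 11 (log2 fold change 4.25 with and 4.85 without replicate 1). Replicate 1 was the lowest of its clone. No called gene in this group had an adjusted p above 0.000321.

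Growth factor ligands gave 9 of 39 higher in clone 10 and 8 in clone 11, and 7 and 8 without replicate 1, so the larger count depended on that library. The fit of the 5 libraries alone gave 5 and 8. HGF, the ligand of MET, was at 30.3, 39.8 and 66.1 TPM in clone 10 and 2.42 and 5.35 TPM in clone 11 (log2 fold change 3.24 with and 3.49 without replicate 1). FGF7, a ligand of epithelial FGF receptors, was at 57.1, 84.03 and 91.5 TPM in clone 10 and 6.99 and 9.46 TPM in clone 11 (log2 fold change 3.08 with and 3.28 without replicate 1). Neither ligand overlapped between the clones. Neuregulin 1 (NRG1), a ligand of ERBB receptors, was higher in clone 11, at 6.15, 5.55 and 4.75 TPM in clone 10 and 37.6 and 28.1 TPM in clone 11 (log2 fold change -2.38 with and -2.45 without replicate 1). GAS6, the ligand of AXL, was higher there as well, at 8.01, 10.2 and 13.9 TPM in clone 10 and 52.2 and 44.2 TPM in clone 11 (log2 fold change -2.10 with and -1.92 without replicate 1). AXL itself was at 25.5, 28.6 and 60.7 TPM in clone 10 and 68.6 and 72.02 TPM in clone 11 and was not called (log2 fold change -0.97 ± 0.35 with and -0.74 without replicate 1, adjusted p = 0.0568). Without clone 10 replicate 3, the highest of its clone, it was called higher in clone 11 (-1.35, adjusted p = 0.00491). Of 33 receptor tyrosine kinases, 4 were higher in each clone (4 in clone 10 and 3 in clone 11 without replicate 1). PDGFRA was at 65.4, 91.1 and 59.9 TPM in clone 10 and 5.00 and 2.71 TPM in clone 11 (log2 fold change 3.93 ± 0.23 with and 3.99 without replicate 1). EGFR was at 16.4, 13.5 and 14.8 TPM in clone 10 and 7.07 and 5.78 TPM in clone 11 (log2 fold change 1.10 ± 0.25 with and 1.03 without replicate 1). Both were above all clone 11 libraries in each clone 10 library, but the EGFR call was lost without clone 11 replicate 3 (log2 fold change 0.97, adjusted p = 0.0577). IGFBP5, which binds insulin-like growth factors, was at 1239.5, 1836 and 1270.2 TPM in clone 10 and 215 and 85.6 TPM in clone 11 (log2 fold change 3.38 with and 3.48 without replicate 1). IRS2, an adaptor of their receptor, was higher in clone 11, at 3.09, 2.61 and 1.86 TPM in clone 10 and 24.5 and 21.3 TPM in clone 11 (log2 fold change -2.77 with and -2.89 without replicate 1). The neurotrophin receptor NGFR was at 5.67, 2.66 and 1.17 TPM in clone 10 and 6.45 and 5.78 TPM in clone 11. It was not called with all libraries (log2 fold change -0.92 ± 0.28) and was called without clone 10 replicate 1 (-1.33, adjusted p = 7.44e-05). The called genes given with values here had adjusted p-values of 0.00322 or lower.

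Calls among redox and lipid genes fell mostly on the side of clone 10. Of 42 tested redox genes and targets of the stress-response factor NRF2, 13 were higher in clone 10 and 3 in clone 11 (median log2 fold change 0.64; 14 and 2 without clone 10 replicate 1). The glutathione synthesis subunit GCLM was at 33.5, 34.6 and 27.2 TPM in clone 10 and 10.4 and 7.11 TPM in clone 11 (log2 fold change 1.76 ± 0.17 with and 1.72 without replicate 1). The cystine transporter SLC7A11 was at 51.5, 54.4 and 47.7 TPM in clone 10 and 21.2 and 12.7 TPM in clone 11 (log2 fold change 1.58 with and 1.58 without replicate 1). The pentose phosphate enzyme PGD was at 358, 479.6 and 231 TPM in clone 10 and 109 and 79.6 TPM in clone 11 (log2 fold change 1.86 with and 1.83 without replicate 1). Every clone 10 library exceeded both clone 11 libraries for these 3. AKR1B10, an aldo-keto reductase with close relatives, was at 12.4, 18.9 and 16.9 TPM in clone 10 and 2.36 and 0.669 TPM in clone 11 (log2 fold change 2.83 with and 3.00 without replicate 1). NQO1, a classical NRF2 target, was not called, at 874, 1096 and 715 TPM in clone 10 and 932 and 496 TPM in clone 11. The NRF2-type element TGACNNNGC stood in 2 of 7 promoters of list members higher in clone 10 (those of GCLM and PGD), in 8 of 30 (26.7%) of all tested members, and in 11.9% of the promoters of tested genes, over the same 250 bases and both strands. Adjusted p-values for the called genes above were at most 0.000125.

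Of 34 genes of cholesterol and fatty acid synthesis, 9 were higher in clone 10 and 0 in clone 11 (median log2 fold change 0.51), and 6 and 0 without clone 10 replicate 1. At an unadjusted p under 0.05 in limma, 0 were higher in clone 11, a count with no background share. The count of 9 called in clone 10 rested on single libraries. It was 4 without clone 10 replicate 2 or without clone 11 replicate 3, and 16 without clone 10 replicate 3. DHCR7, the last enzyme of cholesterol synthesis, was at 378, 445 and 142 TPM in clone 10 and 117 and 86.96 TPM in clone 11 (log2 fold change 1.50 with and 1.31 without replicate 1). The desaturase FADS2 was at 26.3, 21.8 and 18.5 TPM in clone 10 and 8.23 and 7.75 TPM in clone 11 (log2 fold change 1.35 with and 1.23 without replicate 1). SREBF1, the gene of a transcription factor for lipid synthesis, was at 125, 144 and 107 TPM in clone 10 and 47.98 and 59.3 TPM in clone 11 (log2 fold change 1.21 with and 1.21 without replicate 1). Clone 10 replicate 3 was the lowest of its clone in all 3, and INSIG1, which restrains the pathway, overlapped at 407, 396 and 132 TPM in clone 10 and 307 and 181 TPM in clone 11. The DHCR7 call was lost without clone 11 replicate 3 (log2 fold change 1.29, adjusted p = 0.0528). In lipid uptake and storage, 7 of 28 were higher in clone 10 and 1 in clone 11 (7 and 2 without replicate 1). Apolipoprotein E (APOE) was at 889, 782 and 700.3 TPM in clone 10 and 277 and 197 TPM in clone 11 (log2 fold change 1.75 with and 1.66 without replicate 1). The nuclear receptor PPARG was at 17.8, 9.26 and 4.81 TPM in clone 10 and 1.19 and 0.675 TPM in clone 11 (log2 fold change 2.44 with and 2.01 without replicate 1). Neither overlapped. The lysosomal protease cathepsin D (CTSD) was at 5322, 5298 and 2529 TPM in clone 10 and 1228 and 773 TPM in clone 11 (log2 fold change 2.09 with and 1.91 without replicate 1). Of 23 genes of retinoid and aldehyde metabolism, 5 were higher in clone 10 and 1 in clone 11 (6 and 2 without replicate 1). The count for clone 11 was also 2 without clone 10 replicate 2, clone 10 replicate 3 or clone 11 replicate 3. Beside ALDH1A1, the retinoic acid hydroxylase CYP26B1 was at 7.16, 15.1 and 7.74 TPM in clone 10 and 0.691 and 1.43 TPM in clone 11 (log2 fold change 2.37 with and 2.55 without replicate 1). RDH10, which makes retinal from retinol, was higher in clone 11, at 30.2, 22.4 and 9.52 TPM in clone 10 and 118 and 66.6 TPM in clone 11 (log2 fold change -2.19 with and -2.51 without replicate 1). For these called genes limma gave adjusted p-values up to 0.00226.

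Transcription factors of mesenchymal tissues were likewise divided, with 6 of 36 higher in clone 10 and 5 in clone 11 (5 and 7 without replicate 1). The forkhead genes FOXF1 and FOXF2, which mark visceral mesenchyme, were both higher in clone 10. FOXF1 was at 164, 209 and 176 TPM in clone 10 and 38.00 and 34.02 TPM in clone 11 (log2 fold change 2.31 with and 2.39 without replicate 1). FOXF2 was at 149, 204 and 135 TPM in clone 10 and 28.2 and 15.4 TPM in clone 11 (log2 fold change 2.88 with and 2.93 without replicate 1). The T-box repressor TBX2 was at 99.5, 62.7 and 55.8 TPM in clone 10 and 18.5 and 11.2 TPM in clone 11 (log2 fold change 2.21 with and 1.96 without replicate 1). All 3 were above clone 11 in each clone 10 library. The related TBX3 was higher in clone 11, at 1.52, 1.36 and 1.27 TPM in clone 10 and 5.62 and 8.26 TPM in clone 11 (log2 fold change -1.72 with and -1.76 without replicate 1). The limb homeobox genes were divided too. PITX1, a hindlimb homeobox gene, was higher in clone 10, at 38.95, 58.5 and 75.95 TPM in clone 10 and 0.779 and 0.957 TPM in clone 11 (log2 fold change 4.93 with and 5.18 without replicate 1). PRRX1, a limb mesenchyme homeobox gene, was higher in clone 11, at 4.47, 2.12 and 1.30 TPM in clone 10 and 40.98 and 28.9 TPM in clone 11 (log2 fold change -3.38 with and -3.72 without replicate 1). PRRX1 in clone 11 was near the untreated mean of 40.5 TPM. N-cadherin (CDH2) was higher in clone 11, at 2.58, 1.0 and 1.99 TPM in clone 10 and 18.3 and 29.9 TPM in clone 11 (log2 fold change -3.14 with and -3.31 without replicate 1). No called gene in this group had an adjusted p above 1.08e-05.

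MITF, the master regulator of melanocytes, was higher in clone 10, at 48.7, 55.7 and 36.9 TPM in clone 10 and 16.2 and 14.4 TPM in clone 11 (log2 fold change 1.54 ± 0.19, and 1.51 without replicate 1), below the untreated mean of 123 TPM in both clones. Its pigment target PMEL was at 279, 55.2 and 31.5 TPM in clone 10 and 3.42 and 16.6 TPM in clone 11. The call with all libraries (log2 fold change 3.18 ± 0.95, adjusted p = 0.0215) was lost without clone 10 replicate 1 (2.28, adjusted p = 0.105) and without clone 11 replicate 2 (2.18, adjusted p = 0.272). SOX10 and MLANA were not called, with log2 fold changes of 1.28 ± 0.78 and 1.21 ± 0.94 that became 0.20 and 0.01 without clone 10 replicate 1. Over the melanocyte list, 4 of 22 were higher in clone 10 and 0 in clone 11 (0 at an unadjusted p under 0.05 in limma) with all libraries, and 2 and 0 without replicate 1, when the median went from 0.77 to 0.29. Without clone 10 replicate 3 the counts were 8 and 0.

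The genes that the MAPK pathway drives, the route both drugs act on, gave 7 of 25 higher in clone 10 and 1 in clone 11 (6 and 1 without replicate 1). Without clone 11 replicate 2 the counts were 4 and 2. The phosphatase DUSP4, a feedback inhibitor of ERK, was at 15.8, 12.01 and 14.9 TPM in clone 10 and 1.62 and 2.64 TPM in clone 11 (log2 fold change 2.29 ± 0.18 with and 2.22 without replicate 1). The ERK-dependent factor ETV4 was at 28.6, 10.9 and 15.8 TPM in clone 10 and 2.85 and 8.54 TPM in clone 11 (log2 fold change 1.58 with and 1.23 without replicate 1). Both were far below untreated means of 164 and 276 TPM. DUSP6 was at 70.6, 125 and 74.6 TPM in clone 10 and 46.5 and 22.1 TPM in clone 11 and was not called (log2 fold change 1.41 ± 0.54 with and 1.56 without replicate 1, adjusted p = 0.072). DUSP5 was higher in clone 11, at 4.92, 7.32 and 6.84 TPM in clone 10 and 21.1 and 13.02 TPM in clone 11 (log2 fold change -1.27 with and -1.12 without replicate 1). Without clone 11 replicate 2 the calls of ETV4 (log2 fold change 0.92, adjusted p = 0.111) and DUSP5 (-0.94, adjusted p = 0.114) were lost. SPRY4 and CCND1 were below the size threshold, with log2 fold changes of 0.77 ± 0.22 and 0.65 ± 0.18 (0.54 and 0.60 without replicate 1). The kinase MAP3K8, which can activate MEK, was at 5.05, 4.71 and 4.97 TPM in clone 10 and 0.944 and 1.03 TPM in clone 11 (log2 fold change 1.57 with and 1.55 without replicate 1). BRAF was at 10.4, 11.7 and 9.24 TPM in clone 10 and 12.01 and 11.4 TPM in clone 11 and overlapped. The called genes given with values here had adjusted p-values of 0.00492 or lower.

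Some groups had no call or few. No gene was called among 77 cytosolic ribosomal protein genes, 13 mitochondrially encoded genes, 21 genes of HLA class I presentation or 15 of the BCL2 family by limma. At an unadjusted p under 0.05 there were 2, 4, 3 and 5 of them. The share of all genes at that cutoff was not counted, so such counts, here and above, have no background. Of all genes tested 9.07% were called, so lists of 13 to 21 genes would hold few calls at that share. All 13 mitochondrially encoded genes were nevertheless on the side of clone 10, with a median log2 fold change of 0.38, and their share of the deposited TPM was 15.0%, 15.6% and 13.6% in clone 10 and 11.6% and 11.3% in clone 11, with no overlap. The part of this difference in composition in the other results was not tested. In the cell cycle list 41 of 46 genes had positive log2 fold changes, with a median of 0.31, and 1 was called, CDT1, at 24.7, 12.3 and 26.5 TPM in clone 10 and 8.02 and 11.01 TPM in clone 11 (log2 fold change 1.02 with and 0.88 without replicate 1). That call was lost without clone 10 replicate 1, clone 10 replicate 3 or clone 11 replicate 2, and the gene was named after its values were seen. The proliferation marker MKI67 was at 14.5, 16.9 and 28.1 TPM in clone 10 and 15.02 and 22.4 TPM in clone 11. Of 56 interferon-stimulated genes, 0 were higher in clone 10 and 5 in clone 11 (0 and 4 without replicate 1), and at an unadjusted p under 0.05 there were 3 and 17. ISG15, a ubiquitin-like modifier, was at 467, 522 and 525 TPM in clone 10 and 1674 and 1277 TPM in clone 11 (log2 fold change -1.53 with and -1.48 without replicate 1). IFI27 was at 130.0, 119.6 and 106 TPM in clone 10 and 228 and 338 TPM in clone 11 (log2 fold change -1.23 with and -1.29 without replicate 1). Both were high in each clone beside untreated means of 78.4 and 1.52 TPM. The interferon count was 2 without clone 11 replicate 2, and the IFI27 call was lost without clone 11 replicate 3 (log2 fold change -0.94, adjusted p = 0.237).

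**Figure D5:**
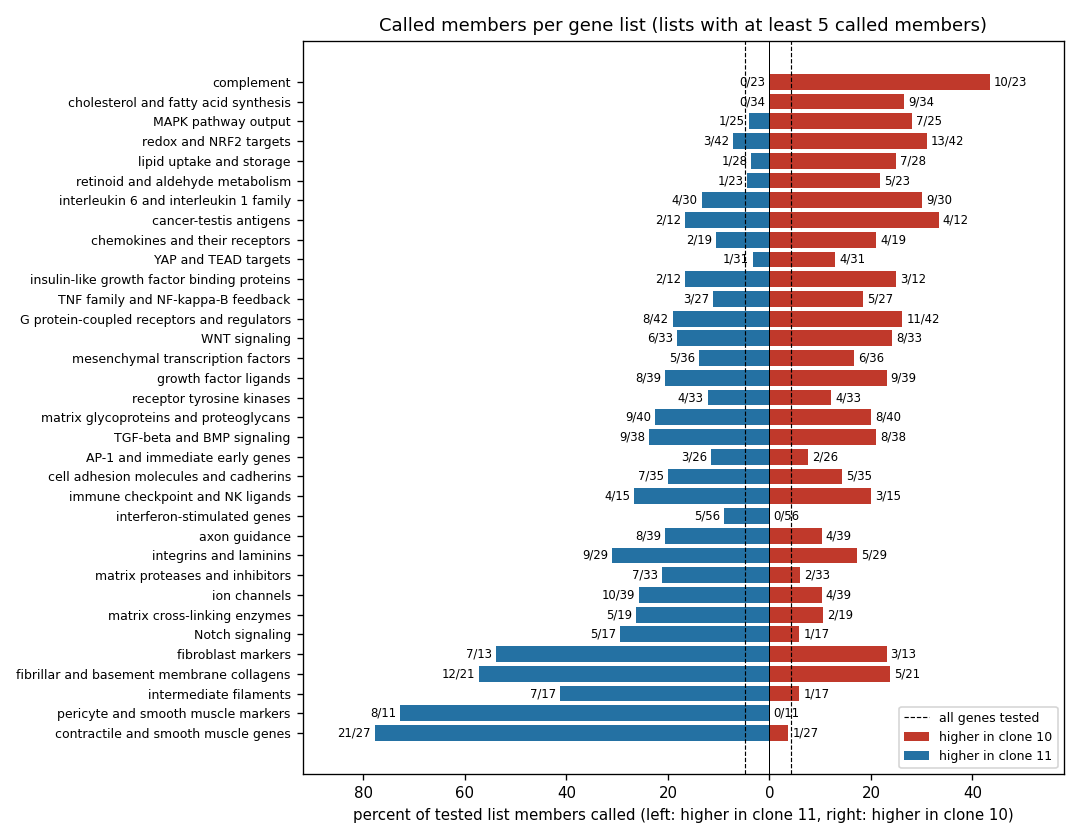
Percent of tested members called higher in clone 10 (red, right) and in clone 11 (blue, left) for the 34 gene lists with at least 5 called members, with the number called over the number tested at each bar end. Dashed lines mark the shares over all genes tested, 4.34% and 4.73%; the contractile list reaches 21 of 27 on the left and the complement list 10 of 23 on the right.

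Clones 12 and 13, under the same drugs, give a further reference, as levels with no test. Their means on the log2 scale both lay nearer to clone 10 for 395 of 679 genes higher in clone 10 (58.2%) and for 434 of 741 higher in clone 11 (58.6%). Both lay nearer to clone 11 for 114 (16.8%) and 125 (16.9%). The same shares over all genes tested were not counted, so these shares have no background and show no particular likeness. TAGLN averaged 53.4 and 60.2 TPM there, and POSTN averaged 0.289 and 0.398 TPM, near the clone 10 side. VCAM1 averaged 588 and 492 TPM and CXCL12 218 and 245 TPM, also near clone 10. COL1A2 was split, at 6.30 TPM in clone 12 and 366 TPM in clone 13. For ALDH1A1 the means of 24.1 and 23.3 TPM lay between clone 10 and clone 11, as did those of SFRP4, at 102 and 68.9 TPM. Other genes lay with clone 11. The chemokine CXCL14 was at 35.6, 47.97 and 58.5 TPM in clone 10 and 9.67 and 2.60 TPM in clone 11 (log2 fold change 2.94 with and 3.12 without replicate 1) and averaged 5.47 and 5.06 TPM in clones 12 and 13. Its call was lost without clone 11 replicate 3 (log2 fold change 2.15, adjusted p = 0.179). The hair keratin KRT34 was at 16.4, 0.575 and 2.72 TPM in clone 10 and 49.4 and 46.4 TPM in clone 11 (log2 fold change -3.39 with and -4.33 without replicate 1) and averaged 28.6 and 27.7 TPM.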

How the data were processed

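Paired-end libraries were made from poly(A) RNA after the samples had been randomized, per the labels' protocols. The authors deposited 1 table of 35438 genes in 23 libraries. The deposited values are TPM by their sums, which are the same in every column, although the table's name says counts. Per the submitters' processing notes, kallisto and hg19 were used. Versions, transcript annotation and gene summarization: not given in the sources used here. Depth per sample is unknown.

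Libraries were put on 1 scale by trimmed log ratios (30% of ratios and 5% of levels trimmed on each side, over 10822 genes at 1 TPM or more in every library). Genes at 1 TPM or more in at least 2 libraries were tested on log2(scaled TPM + 1) with limma 3.58.1 in R 4.3.3, in 1 fit of 23 libraries and 8 groups with 15 residual degrees of freedom and a trend, with Benjamini-Hochberg adjustment over 15657 genes. Errors beside log2 fold changes are standard errors. The procedure was run on simulated data with the same spread in every library of a gene. That run therefore cannot show how it behaves with a library that stands apart. Called list members are counted with no set test.

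Named genes were a fixed panel, the 15 highest in each clone and members of each list (up to 6 called and 2 uncalled). Genes moved most by clone 10 replicate 1 were added. The 15 highest had to be called with and without that library, at 10 TPM or more and with no overlap between the clones. Their separation was therefore fixed by the choice. The comparison, the members and the 57 lists were chosen with earlier results of these data known, among them levels of POSTN, CXCL12, VCAM1 and COL1A2 in these clones. Chromosomes and promoters came from RefSeq tables (GRCh38.p14), by symbol. Alternatives were another scaling, pseudocount or filter, library weights, a replicate block, a fit of the 5 libraries alone and leaving out each library. Single-gene values for some list members are not reported here.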

Additional observations from a re-analysis of the deposited data

How the results depend on the processing

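The counts of genes higher in clone 10 and clone 11, 679 and 741, stayed within 1.5 times under every alternative except a fit of the 5 libraries alone, which gave 401 and 455 (523 and 657 without clone 10 replicate 1, added after seeing the data). Leaving out each library in turn gave 567 to 901 and 641 to 875. Replicates 2 and 3 share numbers between the clones, with deviations from the group means correlated at 0.121 and 0.146 over 2 pairs only. The deviations of the 2 clone 11 libraries mirror each other, so crossed pairs gave the same values with a minus sign. These correlations therefore cannot show whether libraries of the same number were handled together. The replicate block gave 685 and 744. Some uncalled genes with log2 fold changes near 0 changed sign. When each library was left out, C3 ran from -0.22 to 0.13, CD46 from -0.0596 to 0.22, INSIG1 from -0.15 to 0.76, KRT18 from -0.59 to 0.25, KRT8 from -0.15 to 0.31, MKI67 from -0.23 to 0.32, NQO1 from -0.0804 to 0.83, RGS5 from -0.20 to 0.11 and TNNT1 from -0.12 to 0.0940. TNNT1 was 0.0662 with library weights, 0.0410 with the replicate block and 0.0926 with only clones 10 and 11 without clone 10 replicate 1, where INSIG1 was -0.0471 and KRT18 was 0.17. The causes were not tested. Library weights lost the calls of CDT1, DUSP5, IFI27 and PMEL. The fit of the 5 libraries alone lost those of HEY1, DCN, DHCR7, ETV4, LAMA3, CD8A, KRT14, KRT34 and COL8A2, besides CDT1 and PMEL. That fit also lowered 39 of 114 list counts by over 1.5 times and raised none. Among counts for clone 10, growth factor ligands fell from 9 to 5, integrins and laminins from 5 to 1, TGF-beta and BMP from 8 to 4, WNT from 8 to 5, complement from 10 to 6, cholesterol and fatty acid synthesis from 9 to 3, MAPK output from 7 to 3, retinoid metabolism from 5 to 3, melanocyte genes from 4 to 1, the cell cycle list from 1 to 0 and G protein-coupled receptors from 11 to 7. Among counts for clone 11, WNT fell from 6 to 2, intermediate filaments from 7 to 3, cross-linking enzymes from 5 to 3, G protein-coupled receptors from 8 to 5, receptor tyrosine kinases from 4 to 2, redox genes from 3 to 1, immune markers from 2 to 1 and lipid uptake from 1 to 0. The contractile count for clone 11 was 19 there and the collagen count 12. Leaving out single libraries moved 7 to 15 of the 114 list counts, and other alternatives moved 0 to 13, apart from 25 for the 5-library fit without clone 10 replicate 1. Calls for every other gene named as higher, in the alternatives that left no library out, held except the PMEL call with no filter on low values and the CDT1 call with median-ratio scaling. Unknown depth limits the low genes: no counting interval can be set for values near 0.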

Other observations

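Median log2 fold changes differed between chromosomes, and no test was made of this. The 9996 genes used had a chromosome and at least 5 TPM as the average of the clone 10 mean and the clone 11 mean. Chromosome 22 had the highest median log2 fold change of 23 chromosomes, 0.31 over 259 genes. Of these genes 76.5% were positive, and the median was 0.31 also without clone 10 replicate 1. The other chromosomes had medians from -0.16 (chromosome 5) to 0.16 (chromosome 11), and the median over all of these genes was 0.02. Of the 259 genes on chromosome 22, 19 were called higher in clone 10 and 8 in clone 11. The shares over all genes tested were 4.34% and 4.73%. Set against untreated cells, the chromosome 22 median was 0.11, 0.04 and 0.10 in clone 10 replicates 1, 2 and 3. It was -0.28 and -0.21 in clone 11 replicates 2 and 3, so the clones did not overlap. The libraries of clones 12 and 13 ran from -0.04 to 0.12.

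Windows of 40 neighbouring genes, overlapping along each chromosome, showed where medians lay farthest from 0. Those given were chosen after their values were seen, as the extremes of many windows, so extreme values are part of the choice. On chromosome 11, from BIRC2 to SIK3, the median was 0.55 with 95% of genes positive. There 9 of 40 genes were called higher in clone 10 and 0 in clone 11, beside 4.34% and 4.73% of all genes tested. On chromosome 3, from PDE12 to ZNF717, the median was 0.49. The lowest were -0.38 on chromosome 12, from RASSF8 to ANO6, and -0.36 on chromosome 5, from G3BP1 to RPL26L1. DNA copy number was not measured, and no test was made of these windows.

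Genes of other lists also differed. Among 15 immune checkpoint and NK ligand genes, 4 were higher in clone 11 and 3 in clone 10 (5 and 2 without clone 10 replicate 1). ENTPD1 (CD39), which breaks down extracellular ATP, was at 1.53, 2.91 and 2.84 TPM in clone 10 and 29.1 and 22.7 TPM in clone 11, and NT5E (CD73), which makes adenosine in the next step, was at 10.4, 16.8 and 18.8 TPM in clone 10 and 44.0 and 51.3 TPM in clone 11. The clones did not overlap for either enzyme, with log2 fold changes of -2.99 and -1.61. Prostaglandin E synthase (PTGES) was higher in clone 10, at 29.6, 31.8 and 17.2 TPM against 3.51 and 3.98 TPM.

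In clone 10 replicate 1 some pseudogene and unnamed transcripts were listed at 0 or were raised alone. DUXAP8 was at 0, 23.2 and 30.9 TPM in clone 10 replicates 1, 2 and 3, and RPS23P5 was at 110.3, 1.21 and 2.10 TPM. Of the 741 genes higher in clone 11, 31.4% had that library as the highest of clone 10, beside 34.4% of all genes tested. Of the 679 higher in clone 10, 23.1% had it as the lowest, beside 41.9% of all genes tested.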
